A study of Arabidopsis thaliana with 14 samples.

Results

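The micropylar endosperm, the region that surrounds the young embryo, was compared with the neighbouring peripheral endosperm in Arabidopsis thaliana seeds. The comparison used the 2 micropylar arrays and the 2 peripheral arrays among the 14 arrays of the study, and it covered all 22746 non-control probe sets, of which 17336 passed a filter on low signal and were tested. The seeds came from plants of genotype Ws-0 with no treatment named, and they held embryos proper of 2 to 8 cells (the pre-globular stage). The plants were 38 to 46 days old, grown at 20 °C and 50 to 70% humidity, and the siliques were 1.0 to 1.1 cm long. Tissue was cut by laser microdissection from fixed and paraffin-embedded sections of siliques, and 2 to 5 ng of total RNA per sample was amplified, labelled and hybridised to ATH1 arrays. The other arrays held the embryo proper, the chalazal endosperm, the general seed coat, the chalazal seed coat and whole seed sections, with 2 arrays each. The 2 arrays of a region are called biological replicates in the labels, which do not tie them to particular plants. The p-values rest on the spread between replicate arrays, pooled over all 7 groups, and do not measure a spread between plants. The titles call the second region peripheral endosperm, whereas its source and description call it cellularized endosperm. The title's name is used here.

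The endosperm is the product of the second fertilisation of the angiosperm seed, and it feeds the embryo. In Arabidopsis it first grows as a syncytium, in which nuclei divide without cell walls, and walls then form in a wave that starts around the embryo at the micropylar end and passes through the peripheral region. Type I MADS-box transcription factors are known for their activity in the female gametophyte and the endosperm. Among them AGL62 is known to hold back the formation of walls.

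The labels of the 4 arrays could be checked by some markers and not by others. The summed signal of 6 tested endosperm regulators was 3620 and 2934 in the micropylar arrays and 11000 and 12736 in the peripheral arrays, against 2234 and 1550 in the general seed coat. The members did not all go that way. DME, by its brightest probe set, had 313 and 593 in the micropylar and 716 and 604 in the peripheral arrays, against 1679 and 911 in the general seed coat. IKU1 had 775 and 209 in the micropylar arrays against 277 and 236. AGL62, MPC, AT4G11940 and UCL1 were above the general seed coat in both micropylar arrays. In both peripheral arrays these genes and IKU1 were above it. The summed signal of 8 seed coat and flavonoid genes was 3845 and 3880 in the micropylar arrays and 2204 and 5050 in the peripheral arrays, against 104071 and 91439 in the general seed coat. THI2.1 alone had 54851 and 45158 of the latter. It and ARA12, DFR, CHIL, INO and BAN were lower in all 4 arrays than in the general seed coat. CHI was not, with 189 and 250 (micropylar) and 178 and 96.2 (peripheral) against 120 and 3.88. Nor was UGT80B1, with 322 and 174 and with 181 and 336, against 125 and 361. None of the 5 micropylar endosperm markers that were listed had a probe set with a gene name here, and neither did the suspensor markers. The label of the micropylar region was therefore not checked by its own markers. On the log2 scale, replicate arrays correlated at r = 0.853 (micropylar) and r = 0.925 (peripheral). Arrays of different regions correlated at 0.780 to 0.816. The spike-in controls averaged 124845 and 152434 in the micropylar arrays and 72227 and 56743 in the peripheral arrays, and the brightest 100 probe sets held 25.6% and 25.8% of the signal against 18.2% and 17.0%. The part of these array-wide differences in the results below was not tested. In samples of bulk tissue, fewer cells of a type and less RNA per cell cannot be told apart.

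Differences are given as log2(signal + 35.9) in the micropylar minus the peripheral endosperm, so 1 unit is a doubling of that sum. The constant 35.9 is the 25th percentile of all deposited values. A probe set was called at an adjusted p under 0.05 in limma, with a difference of at least 2-fold. By this rule 1049 probe sets (6.05% of those tested) were higher and 1062 (6.13%) were lower in the micropylar endosperm, together 12.2%. The median difference over all tested probe sets was 0.04, with an interquartile range of -0.66 to 0.71. Scaling every array to a common median moved that median to -0.21 and the calls to 782 higher and 1631 lower, so the share of calls that were higher went from 49.7% to 32.4%. Every called probe set had micropylar arrays that did not overlap the peripheral arrays, which was also so for 27.8% of all tested probe sets with the micropylar arrays above and 25.7% with them below. With 1 array left out, the counts were 475 higher and 394 lower without peripheral replicate 1, and 533 and 418 without peripheral replicate 2. They were 633 and 741 without micropylar replicate 2, and 768 and 907 without micropylar replicate 1. Among the 9760 genes with a name, 599 (6.14%) were higher and 531 (5.44%) were lower, and the arrays of the regions did not overlap for 28.0% with the micropylar arrays above and 24.2% with them below. The groups' lack of overlap for a named gene is to be read against these shares. A list's counts of called members are likewise to be read against the 6.14% and 5.44%.

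**Figure D1:**
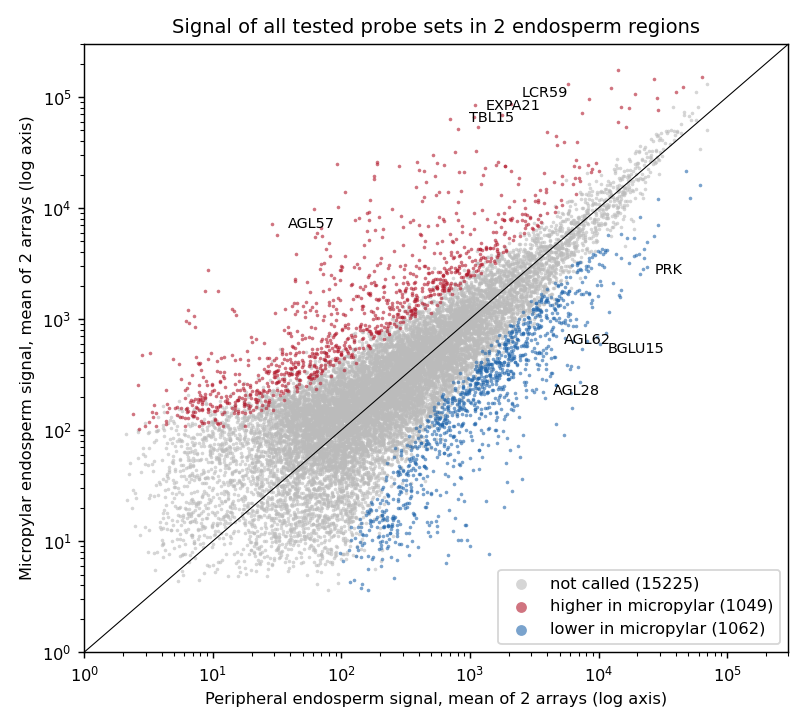
Mean signal of each of the 17336 tested probe sets in the peripheral endosperm (horizontal log axis) and in the micropylar endosperm (vertical log axis), each a mean of 2 arrays. Red points mark the 1049 probe sets called higher, blue points the 1062 called lower and grey points the rest, the line marks equal signal, and 8 genes are labelled.

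The 2 directions had nearly the same number of calls but not the same sizes. At least 4-fold differences were counted for 668 higher and 692 lower probe sets, and at least 16-fold for 109 and 35. At least 32-fold differences were counted for 50 and 7, and at least 64-fold for 15 and 0. The excess of higher probe sets at 16-fold or more was found under each of the 15 other processing settings, with 75 to 244 higher against 8 to 156 lower. The plot of the 2 regions' signals shows the same as a wide red fringe far above the line at low peripheral signal. Sizes at the dim end depend on the constant, since 404 of the higher probe sets had at least 1 peripheral array under 35.9 and 359 of the lower had at least 1 micropylar array under it.

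Among the genes with a name, the largest increases were of genes that were bright in both micropylar arrays and dim in both peripheral arrays. Probe sets without a single gene symbol were not ranked. At least 64-fold increases were counted for 10 named genes, against 15 probe sets. Most of these genes carry only a locus code in the reference table (12 of the 15 largest increases and 14 of the 15 largest decreases), and no role is given here for those. AT4G23080 had signals of 21957 and 27819 in the micropylar arrays and 175 and 9.78 in the peripheral arrays, a difference of 7.98 ± 0.66 (SE; adjusted p = 1.5e-07). AT4G10210 had 24938 and 26598 against 204 and 176, a difference of 6.84 ± 0.48 (adjusted p = 4.61e-08). Neither gene came near to an overlap between the regions. AGL57, a type I MADS-box factor, gave 5806 and 5565 against 41.8 and 21.0, a difference of 6.43 ± 0.59 (adjusted p = 5.53e-07). TBL15, whose family adds acetyl groups to wall polysaccharides, gave 52313 and 49870 against 796 and 821, a difference of 5.92 ± 0.54 (adjusted p = 4.86e-07). EXPA21, an expansin, which loosens cell walls, gave 63009 and 69024 against 1163 and 1006, a difference of 5.88 ± 0.44 (adjusted p = 4.61e-08). For each of these the replicates of a region lay far closer to each other than to the other region. The other 10 of the 15 largest increases had differences of 5.78 to 6.81. One of them, AT5G38170, was brighter still in the embryo proper, where its mean signal was 26432. Its micropylar signals were 13065 and 6589 and its peripheral signals 16.1 and 106.

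The largest decreases among the genes with a name were smaller. AT5G46580 had micropylar signals of 159 and 20.1 and peripheral signals of 6118 and 4646, a difference of -5.68 ± 0.63 (adjusted p = 4.1e-06). AT2G42640 had 18.1 and 22.4 against 1693 and 1955, a difference of -5.05 ± 0.53 (adjusted p = 2e-06). AOR, a chloroplast enzyme that reduces reactive carbonyls, had 84.1 and 47.6 against 1792 and 2294, a difference of -4.37 ± 0.50 (adjusted p = 6.27e-06). The peripheral arrays were high and the micropylar arrays low for each of the 3, with no overlap. All 30 genes, 15 in each direction, kept their call under every one of the 15 alternatives.

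**Figure D2:**
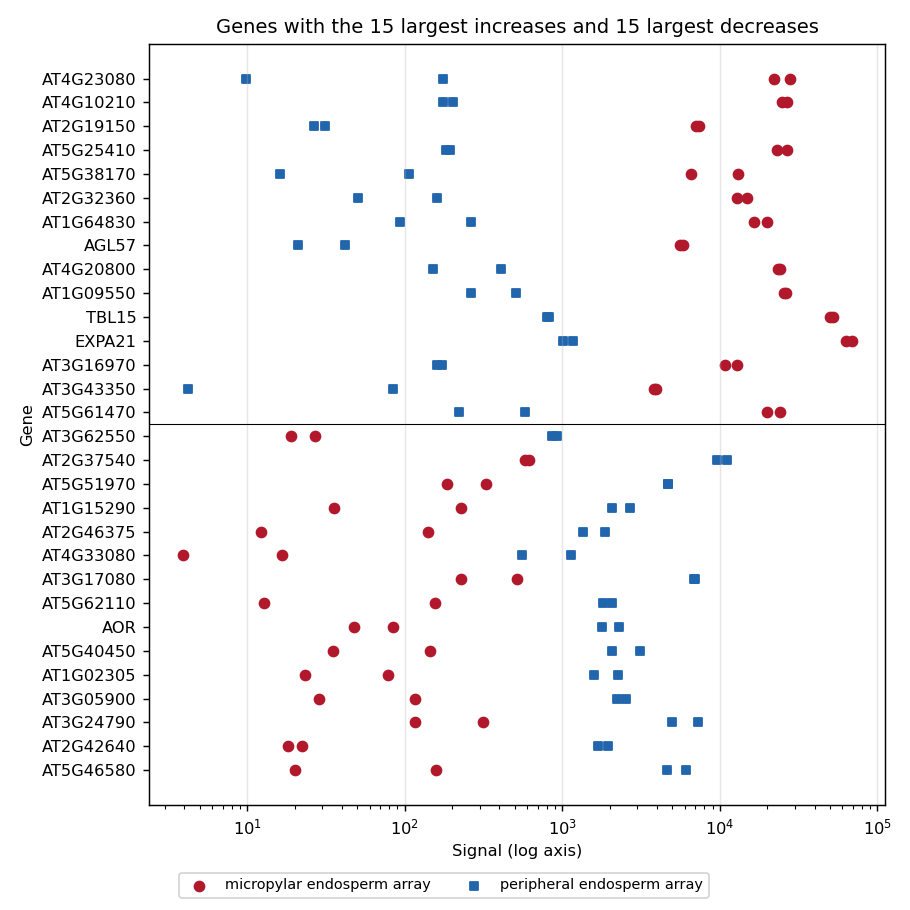
Signal (log axis) of the named genes with the 15 largest increases (above the line) and the 15 largest decreases (below it), with red circles for the 2 micropylar arrays and blue squares for the 2 peripheral arrays. The red and blue points do not overlap for any gene, and the replicates spread most where the signal is lowest.

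The type I MADS-box genes split between the regions. Of 27 with a named probe set 19 were tested. From the peripheral to the micropylar endosperm 6 of these rose (31.6%, against 6.14% of all named genes) and 7 fell (36.8%, against 5.44%). Their median difference was -0.57, against 0.06 over all named genes tested. AGL48 had signals of 5708 and 4682 in the micropylar and 186 and 141 in the peripheral arrays, a difference of 4.71 ± 0.57 (adjusted p = 1.18e-05). AGL96 had 14443 and 13472 against 917 and 428, a difference of 4.40 ± 0.64 (adjusted p = 9.43e-05). AGL41 had 724 and 1251 against 76.1 and 66.7, a difference of 3.21 ± 0.70 (adjusted p = 0.00455), and lost its call with a constant of 1 (adjusted p = 0.116). With AGL57, these were high in both micropylar arrays and low in both peripheral arrays. The other 2 higher members, named after their values were seen, were AGL95 with a difference of 3.16 and AGL59 with 2.14, the latter from a probe set that can bind related transcripts.

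The lower type I members ran the other way. AGL87 had signals of 14.7 and 23.6 in the micropylar and 637 and 738 in the peripheral arrays, a difference of -3.72 ± 0.80 (adjusted p = 0.00403). AGL28 had 165 and 414 against 3588 and 3684, a difference of -3.61 ± 0.53 (adjusted p = 0.000124). AGL62 had 790 and 891 against 3678 and 5237, a difference of -2.34 ± 0.49 (adjusted p = 0.00323). Each was several-fold brighter in both peripheral arrays, and AGL62 lost its call without peripheral replicate 2 (adjusted p = 0.0599). The other 4 lower members, of which all but AT3G05860 were named after their values were seen, were AGL46 and the loci AT3G05860, AT4G36590 and AT5G26630, which the list holds by locus code, with differences of -2.60, -2.94, -2.21 and -1.67. Among the 15 tested members that have a symbol, 6 were higher and 4 lower. With 1 array left out, 4 or 5 members were higher and 3 to 6 lower.

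Levels in the chalazal endosperm, which the comparison did not use, separated the type I genes further. AGL57, AGL48, AGL96, AGL95 and AGL59 had their highest mean in the micropylar endosperm among the 6 compartments. In the chalazal endosperm the mean signal was 116 for AGL57, 124 for AGL48 and 280 for AGL96. AGL41 was brightest in the chalazal endosperm (2867). Of the 7 lower members, AGL28 and AGL46 were brightest in the peripheral endosperm, and the other 5 in the chalazal endosperm. The mean of AGL62 was 6160 there, that of AGL87 1246 and that of AT3G05860 12167. No test was made of these levels.

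**Figure D3:**
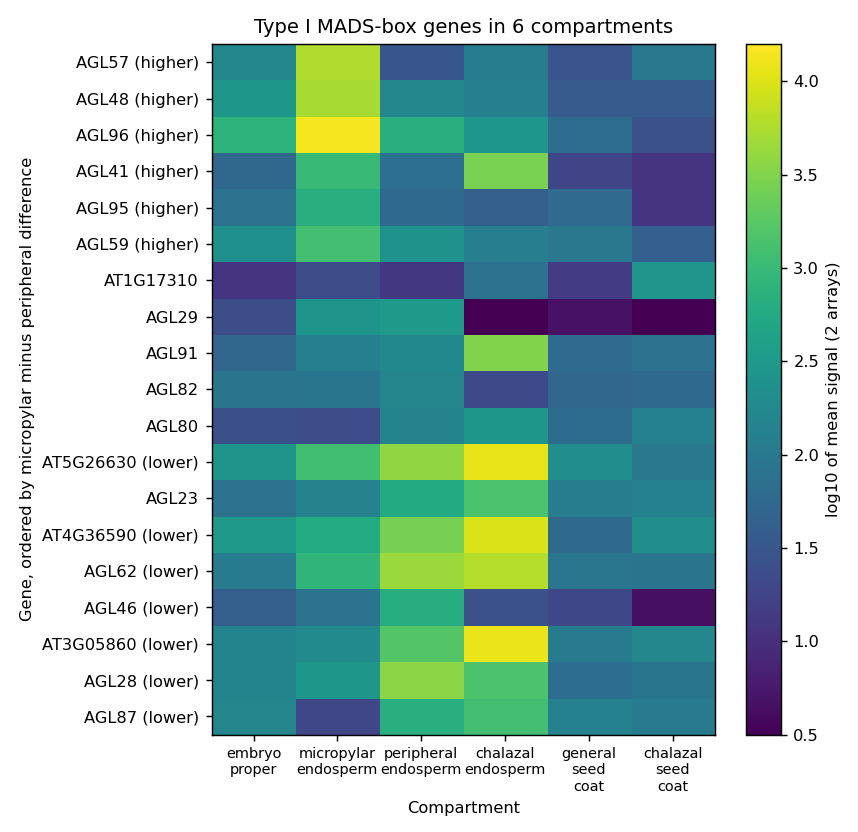
Mean signal (colour, log10, 2 arrays) of the 19 tested type I MADS-box genes in 6 compartments, ordered from the most positive to the most negative micropylar minus peripheral difference. Colours are to be compared along a gene's line only, where the genes called higher are brightest in the micropylar endosperm apart from AGL41, and most of those called lower are brightest in the chalazal endosperm.

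Other regulators of the endosperm were lower or were not called. Of the 6 tested genes of that list, AGL62 included, 0 were higher and 2 were lower (33.3%, against 5.44% of all named genes). Their median difference was -1.10. At an unadjusted p under 0.05 limma gave 0 higher and 3 lower, and with 1 array left out 0 to 3 were lower. MPC, imprinted and read from the maternal genome, had signals of 1115 and 779 in the micropylar and 4653 and 5211 in the peripheral arrays, a difference of -2.36 ± 0.55 (adjusted p = 0.00769). Both peripheral arrays lay above both micropylar arrays. The call of MPC was lost when micropylar replicate 2 or either peripheral array was left out (adjusted p up to 0.0727). IKU1, which promotes endosperm growth, had 775 and 209 against 1312 and 1363, a difference of -1.62 ± 0.59 (adjusted p = 0.0798), so it was not called. DME, the DNA glycosylase of the central cell, ADM (AT4G11940), imprinted and read from the paternal genome, and UCL1 had differences of -0.57, 0.27 and -0.01, with adjusted p-values of 0.487, 0.826 and 0.993. The 3 tested probe sets of DME disagreed, since the value given is that of the brightest. A second one had 152 and 9.25 against 480 and 425, a difference of -2.40 ± 0.61 (adjusted p = 0.0131), and was called lower. The third had a difference of -0.06 (adjusted p = 0.963).

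Among genes of wall polysaccharide modification, the called members were higher in the micropylar endosperm. Of 18 tested genes of the TBL family 4 were higher (22.2%, against 6.14% of all named genes) and 0 lower (against 5.44%). The median difference was 0.58, and 4 were higher with any 1 array left out. At an unadjusted p under 0.05 limma gave 4 higher and 1 lower. Leaving out micropylar replicate 2, or scaling to a common median, gave 1 lower. TBL41 had signals of 97816 and 94850 in the micropylar and 10076 and 6651 in the peripheral arrays, a difference of 3.55 ± 0.35 (adjusted p = 9.01e-07). TBL42 had 37647 and 41161 against 5400 and 5394, a difference of 2.86 ± 0.45 (adjusted p = 0.000225). Neither overlapped between the regions, although both were well above the floor in the peripheral arrays. TBL16 was the fourth, with a difference of 3.25 ± 0.72 (adjusted p = 0.00487), and lost its call with a constant of 1 (adjusted p = 0.0555). TBL41 also had a mean of 50674 in the chalazal endosperm, whereas TBL15 had 1021 there.

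Of 18 tested expansins and xyloglucan enzymes 3 were higher (16.7%, against 6.14% of all named genes) and 0 lower, with a median difference of 0.47. At an unadjusted p under 0.05 limma gave 4 higher and 2 lower. The 3 called members were EXPA21, EXLB2 (AT4G30380), an expansin-like gene, and EXLA1, another. EXLB2 had signals of 12804 and 12257 in the micropylar and 689 and 193 in the peripheral arrays, a difference of 4.95 ± 0.62 (adjusted p = 1.84e-05). EXLA1 had 391 and 408 against 134 and 127, a difference of 1.39 ± 0.36 (adjusted p = 0.0146). The micropylar arrays were higher for both, but EXLA1 was far brighter outside the endosperm, with a mean of 15249 in the general seed coat, and lost its call under 5 alternatives (adjusted p up to 0.186). Of 5 tested pectin enzymes 1 was higher, PME39 (AT4G02300), a pectin methylesterase, with 2817 and 3603 against 77.7 and 68.4, a difference of 4.89 ± 0.69 (adjusted p = 6.87e-05). Of 7 tested genes of cellulose and callose synthesis 0 were higher and 1 was lower, CSLA03, with a difference of -2.63 ± 0.67 (adjusted p = 0.0134) that was lost under 4 alternatives.

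Small secreted peptides were mostly higher where they were called, with 5 of 23 tested genes higher (21.7%) and 1 lower (4.35%). Of all named genes 6.14% were higher and 5.44% lower. At an unadjusted p under 0.05 limma gave 7 higher and 2 lower peptide genes. The median difference was 0.13, and 0.03 with quantile normalization and 0.02 with a common median. Leaving out 1 array gave 3 or 4 higher and 0 or 1 lower. LCR59, a small cysteine-rich peptide, had signals of 83590 and 87753 in the micropylar and 2842 and 1315 in the peripheral arrays, a difference of 5.44 ± 0.40 (adjusted p = 4.61e-08). RALFL18, of the family of peptides that raise the pH outside the cell, had 5218 and 4443 against 441 and 674, a difference of 3.06 ± 0.55 (adjusted p = 0.000806). Both were high in the 2 micropylar arrays and low in the 2 peripheral arrays. LCR68 had 2336 and 644 against 98.1 and 74.8, a difference of 3.38 ± 0.65 (adjusted p = 0.00157). Its micropylar arrays differed more than those of LCR59. Its means of 6934 (embryo proper) and 8706 (chalazal seed coat) were both above its micropylar signals. RALFL28, the lower member, had 50.7 and 33.3 against 264 and 278, a difference of -1.99 ± 0.56 (adjusted p = 0.0236). It lost its call under 5 alternatives (adjusted p up to 0.114), and its mean in the chalazal endosperm was 25539.

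Of 18 tested bZIP transcription factors 5 were higher (27.8%, against 6.14% of all named genes) and 0 lower, with a median difference of 0.92. At an unadjusted p under 0.05 limma gave 8 higher and 1 lower. bZIP33 (AT2G12900) had signals of 1403 and 1073 in the micropylar and 19.7 and 8.49 in the peripheral arrays, a difference of 4.67 ± 0.62 (adjusted p = 3.17e-05). BZIP60, a factor of the response to unfolded proteins in the endoplasmic reticulum, had 1344 and 858 against 171 and 294, a difference of 2.09 ± 0.45 (adjusted p = 0.00395). In both the micropylar arrays lay above the peripheral ones. BZIP60 was brightest in the chalazal endosperm (mean 3331) and lost its call without peripheral replicate 1 (adjusted p = 0.0674). BZIP17, which acts in the same response, had a difference of 1.64 ± 0.49 (adjusted p = 0.0299) and lost its call under 5 alternatives (adjusted p up to 0.172). The count of higher bZIP genes was 2 to 4 with 1 array left out.

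Of 11 tested tetraspanins, membrane proteins with 4 spans, 3 were higher (27.3%, against 6.14% of all named genes) and 0 lower. The median difference was 0.41, and 1 to 3 were higher when an array was left out. At an unadjusted p under 0.05 limma gave 3 higher and 1 lower. TET13 had signals of 263 and 244 against 4.39 and 11.2, a difference of 2.73 ± 0.68 (adjusted p = 0.0111). TET15 had 1030 and 197 against 29.9 and 20.1, a difference of 3.04 ± 0.64 (adjusted p = 0.00367). The micropylar arrays were above the peripheral arrays in both, but in TET15 the first was several-fold brighter than the second. TET15 lost its call without micropylar replicate 1 (adjusted p = 0.0641), and TET13 under 4 alternatives (adjusted p up to 0.0915). TET15 had its highest mean, 4651, in the embryo proper, which the micropylar endosperm surrounds. A set of 22 probe sets that were at least 16-fold brighter in the embryo than in the peripheral and chalazal endosperm and both seed coats, chosen after the data were seen, had a median signal of 3950 in the embryo arrays. Their median was 426 and 182 in the micropylar arrays and 47.1 and 39.1 in the peripheral arrays. All 22 were brighter in micropylar replicate 1 than in replicate 2. The rule set the peripheral signal low and left the micropylar signal free, so it favoured higher calls over lower ones by construction. Of the 22, 8 were called higher (36.4%) and 0 lower, a share not comparable with the 6.05% of all tested for that reason. These 8 were 0.763% of all higher calls, and without every probe set whose embryo mean reached the micropylar mean the higher calls came to 930. The 2 tested embryo markers, BBM and PHV, were not called. Their summed signal was 238 and 14.8 (micropylar arrays), 158 and 158 (peripheral arrays), and 799 and 684 (embryo arrays). The sum hides that the 2 markers differed. BBM had 125 and 6.72 (micropylar arrays), 7.60 and 11.4 (peripheral arrays), and 581 and 680 (embryo arrays). PHV had 114 and 8.05, 151 and 147, and 218 and 3.66 in the same order, so it did not mark the embryo in both embryo arrays. The part of embryo transcripts in the micropylar results was not tested beyond these values.

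Called members of 4 lists of nuclear genes, for carbon fixation and electron transport, chlorophyll, photosystems and chaperones, were all lower in the micropylar endosperm. Of 6 tested nuclear genes of electron transport, ATP synthase and the Calvin cycle 0 were higher and 4 lower (66.7%, against 5.44% of all named genes). Their median difference was -2.17. Leaving out 1 array gave 2 or 3 lower, and an unadjusted p under 0.05 in limma gave 0 higher and 5 lower. PRK, the Calvin cycle kinase that makes the acceptor of carbon dioxide, had signals of 4184 and 2875 in the micropylar and 24366 and 20550 in the peripheral arrays, a difference of -2.68 ± 0.38 (adjusted p = 8.26e-05). RCA, which activates Rubisco, had 406 and 249 against 1972 and 2351, a difference of -2.62 ± 0.49 (adjusted p = 0.00123). Both were higher in the 2 peripheral arrays, and neither lost its call under any alternative. SBPASE, a phosphatase of the same cycle, had 1699 and 1750 against 9366 and 7422, a difference of -2.25 ± 0.66 (adjusted p = 0.0295), and lost its call under 7 alternatives (adjusted p up to 0.181). PIFI, a factor of electron flow in the dark, had 4.22 and 3.39 against 195 and 87.5, a difference of -2.09 ± 0.53 (adjusted p = 0.0123). Both micropylar arrays were under 35.9, and its call was lost under 4 alternatives (adjusted p up to 0.142).

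Of 8 tested genes of chlorophyll synthesis 0 were higher and 3 lower (37.5%, against 5.44% of all named genes). The median difference was -1.27, and an unadjusted p under 0.05 in limma gave 0 higher and 5 lower. With 1 array left out, 0 to 3 were lower. PORB, the light-dependent reductase of the pathway, had signals of 271 and 369 in the micropylar and 1949 and 2412 in the peripheral arrays, a difference of -2.64 ± 0.62 (adjusted p = 0.00754). CHLM, a methyltransferase, had 419 and 356 against 1648 and 1969, a difference of -2.12 ± 0.50 (adjusted p = 0.00762). CHLI2, a subunit of the magnesium chelatase, had 437 and 209 against 1857 and 2097, a difference of -2.56 ± 0.68 (adjusted p = 0.0167). All 3 were lower in both micropylar arrays. Leaving out peripheral replicate 2 ended all 3 calls, with adjusted p-values of up to 0.075 for PORB, 0.0748 for CHLM and 0.127 for CHLI2 over all alternatives.

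The photosystem genes were lower by less. Of 7 tested, 0 were higher and 2 lower (28.6%, against 5.44% of all named genes). The median difference was -0.64, and leaving out 1 array left 0 to 2 lower. An unadjusted p under 0.05 in limma gave 0 higher and 3 lower. PSAN, a subunit of photosystem I, had signals of 663 and 422 in the micropylar and 5180 and 3381 in the peripheral arrays, a difference of -2.90 ± 0.69 (adjusted p = 0.00807). LHCB4.2, a light-harvesting protein of photosystem II, had 478 and 237 against 1669 and 1350, a difference of -2.04 ± 0.61 (adjusted p = 0.0316). The regions did not overlap in either gene. Both calls were lost with a constant of 1 and without some single arrays (adjusted p up to 0.105 and 0.191). Among the uncalled members, 2 were named after their values were seen. PSBW, a photosystem II subunit, had 9366 and 8684 against 11011 and 9992, a difference of -0.22 (adjusted p = 0.727), and LHCB4.1 had 4954 and 3791 against 5935 and 7510, a difference of -0.62 (adjusted p = 0.399).

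Chaperone genes had the same direction where they were called. Of 6 tested chaperone and Clp genes 0 were higher and 5 lower (83.3%, against 5.44% of all named genes). The median difference was -1.36, and 2 or 3 were lower with 1 array left out. An unadjusted p under 0.05 in limma gave 0 higher and 5 lower. Cpn60beta2, a chaperonin subunit of the chloroplast, had signals of 1877 and 1440 in the micropylar and 14566 and 14079 in the peripheral arrays, a difference of -3.10 ± 0.45 (adjusted p = 9.89e-05). Both micropylar arrays were several-fold lower, and the call held under all alternatives. Its mean was 10712 in the embryo and 1625 in chalazal endosperm. Hsp70-2, a heat shock chaperone, had 20133 and 22503 against 52273 and 43479, a difference of -1.16 ± 0.18 (adjusted p = 0.000166), and lost its call with no trend in the moderated variance (adjusted p = 0.0726). Of 69 genes encoded in the chloroplast genome 0 were higher and 4 lower (median difference -0.11). The lower share of 5.80% was close to the 5.44% of all named genes. At an unadjusted p under 0.05 limma gave 8 higher and 10 lower. With 1 array left out, 1 to 4 were lower. The largest was rps2, a ribosomal protein, with 1991 and 1371 against 6963 and 4675, a difference of -1.77 ± 0.35 (adjusted p = 0.00228), lost without peripheral replicate 1 (adjusted p = 0.0612). The others were rpoC1 and rpoB, subunits of the plastid RNA polymerase, and ycf4, an assembly factor of photosystem I, with differences of -1.37, -1.28 and -1.24. Of 16 genes of the mitochondrial genome 0 were called in limma, and 2 higher and 1 lower had an unadjusted p under 0.05.

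**Figure D4:**
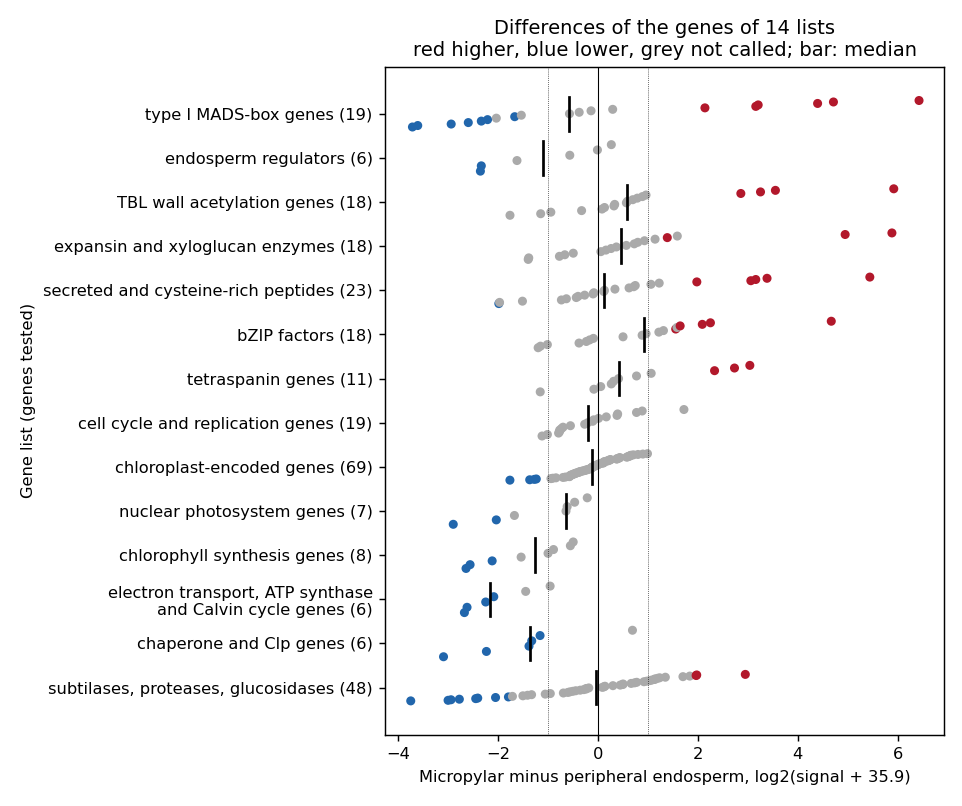
Micropylar minus peripheral difference in log2(signal + 35.9) of every tested gene of 14 lists, with red points for genes called higher, blue points for those called lower, grey points for the rest, and a black bar at each list's median. The lists of the TBL family, expansins, bZIP factors and tetraspanins have red and no blue points, those of chloroplast genes and chaperones blue and no red points, and the type I MADS-box genes both.

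Hydrolases and hormone genes were called in both directions. Of 48 tested subtilases, other proteases and glucosidases 3 were higher (6.25%, close to the 6.14% of all named genes) and 8 lower (16.7%, against 5.44%), with a median difference of -0.05. Leaving out 1 array gave 0 to 3 higher and 4 to 7 lower. BGLU15, a beta-glucosidase, had signals of 571 and 815 in the micropylar and 9069 and 10256 in the peripheral arrays, a difference of -3.75 ± 0.38 (adjusted p = 1.45e-06). BGLU44, another, had 3411 and 2519 against 24082 and 23458, a difference of -3.00 ± 0.38 (adjusted p = 1.84e-05). SCPL34, a serine carboxypeptidase-like gene, had 615 and 1111 against 7230 and 6054, a difference of -2.95 ± 0.48 (adjusted p = 0.000353). In each the peripheral arrays were the high ones, and no alternative ended these calls. ALPHA-VPE, a vacuolar processing enzyme, had 847 and 537 against 55.6 and 57.0, a difference of 2.95 ± 0.72 (adjusted p = 0.0096), lost under 4 alternatives (adjusted p up to 0.133).

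Of 13 tested auxin genes 2 were higher (15.4%, against 6.14% of all named genes) and 0 lower. At an unadjusted p under 0.05 limma gave 3 higher and 1 lower. IAA29, a repressor of auxin responses, had signals of 134 and 184 in the micropylar and 3.86 and 7.39 in the peripheral arrays, a difference of 2.22 ± 0.48 (adjusted p = 0.00428). YUC11, an enzyme of auxin synthesis, had 330 and 553 against 113 and 71.0, a difference of 1.88 ± 0.56 (adjusted p = 0.0313), and lost its call under 8 alternatives (adjusted p up to 0.182). The micropylar arrays were the higher ones for both. Of 4 tested cytokinin genes 0 were higher and 2 lower (50.0%, against 5.44% of all named genes), both response regulators. RR23 had 156 and 183 against 2423 and 2249, a difference of -3.53 ± 0.72 (adjusted p = 0.00253). RR19 had 187 and 38.0 against 691 and 1045, a difference of -2.79 ± 0.68 (adjusted p = 0.0103), and lost its call under 3 alternatives (adjusted p up to 0.122). Both regulators were low in the micropylar arrays and present in the chalazal endosperm, with means of 1732 and 2826.

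Of 19 tested cell cycle and replication genes 0 were called in limma, where 6.14% of all named genes were higher and 5.44% lower. Their differences ran from -1.12 to 1.72 with a median of -0.21, and 2 higher and 1 lower had an unadjusted p under 0.05. The lack of calls does not show that these genes were alike in the 2 regions. Of 29 genes of cytokinesis and the cytoskeleton 4 were higher (13.8%) and 3 lower (10.3%; median difference 0.10, which was below 0 under both other scalings). Between 1 and 4 were higher and 2 or 3 lower when an array was left out. NET1C, of a family that binds actin, had signals of 131 and 178 in the micropylar and 2130 and 2058 in the peripheral arrays, a difference of -3.50 ± 0.44 (adjusted p = 1.63e-05). TUB7, a beta-tubulin, had 712 and 419 against 1881 and 3093, a difference of -2.07 ± 0.39 (adjusted p = 0.00126). NET3A, of the same family as NET1C, had 2717 and 2950 against 324 and 288, a difference of 3.07 ± 0.66 (adjusted p = 0.00405), and lost its call with a constant of 1 (adjusted p = 0.117). The first 2 were low and the last was high in both micropylar arrays. KEU, which serves membrane fusion at the cell plate, had 3586 and 3046 against 1491 and 1349, which was called higher (adjusted p = 0.0274) but not under 6 alternatives.

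Levels in the compartments outside the comparison described where the called probe sets were brightest. Of the 1049 higher probe sets 668 (63.7%) had their highest mean in the micropylar endosperm, against 16.7% of all tested probe sets. The rest were brightest in the chalazal endosperm (12.2%), the chalazal seed coat (9.34%), the general seed coat (8.77%) or the embryo proper (6.01%). Of the 1062 lower probe sets 592 (55.7%) were brightest in the peripheral endosperm, against 13.4% of all tested, and 137 (12.9%) in the embryo proper. Part of this follows from the calls themselves, because a called probe set is by construction high in one of the 2 regions. The chalazal endosperm lay at or below the peripheral mean for 279 of the higher probe sets (26.6%) and at or below the micropylar mean for 431 of the lower (40.6%).

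**Figure D5:**
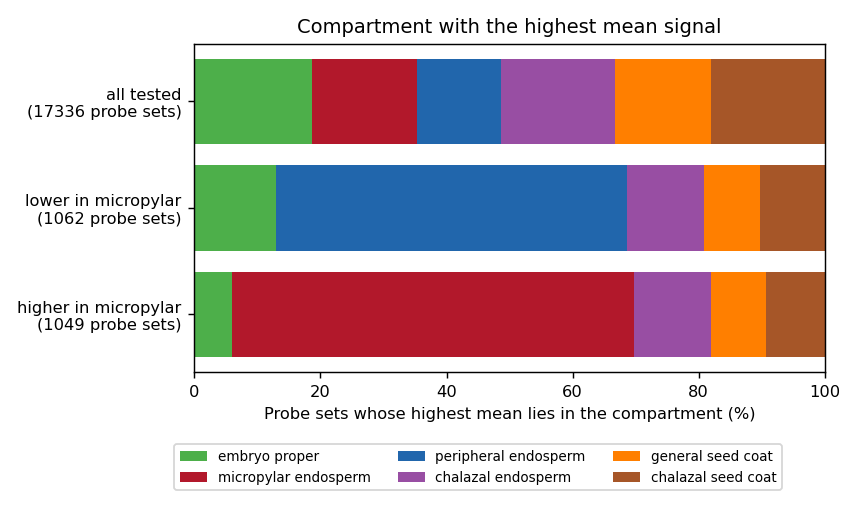
Share of probe sets (horizontal axis, %) whose highest mean signal lies in each of 6 compartments, for the 1049 probe sets higher in the micropylar endosperm, the 1062 lower and all 17336 tested. The micropylar segment is 63.7% of the higher bar and the peripheral segment 55.7% of the lower bar, against 16.7% and 13.4% of the bar of all tested.

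The strongest genes of each direction differed in how dim the other compartments were. For the 53 named genes at least 16-fold higher, the median signal as a share of the micropylar mean was 2.28% in both other endosperm regions and 4.67% in the embryo proper. In the seed coats it was 0.619% (general) and 0.549% (chalazal). For the 74 named genes at least 8-fold lower, the median share of the peripheral mean was 7.06% in micropylar and 15.7% in chalazal endosperm. The embryo proper stood at 12.2%, and the seed coats at 19.9% (general) and 12.6% (chalazal). The peripheral share of the first set and the micropylar share of the second follow from how the sets were chosen. In the 4 compartments outside the comparison the first set was by its median dim, while the second was dim to a lesser degree. The 2 sets were chosen at different sizes, and no test was made between them.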

How the data were processed

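Deposited values were Affymetrix ATH1 signal intensities on a linear scale, which the authors scaled to a common trimmed mean (GCOS, per the submitters' processing notes and the values). Total RNA of microdissected compartments was amplified before labelling, per the labels' protocols. The constant 35.9 was added and log2 was taken. Probe sets were kept where both arrays of at least 1 of the 7 groups exceeded their array's 40th percentile. A model with 1 mean per group over all 14 arrays was fitted (limma 3.58.1, R 4.3.3; eBayes with trend, 7 residual degrees of freedom, two-sided, Benjamini-Hochberg over 17336 probe sets). Calls needed an adjusted p under 0.05 and 2-fold. Names came from the platform table, updated through TAIR10.1: 13513 probe sets had 1 symbol, 503 several and 8730 none. The brightest probe set stood for a gene. Array precision is limited by 2 arrays per region. The fit was tested on simulated data of 17336 probe sets, with 67, 67 and 66 of them changed by 2-fold, 4-fold and 8-fold. It called 5.97%, 16.4% and 54.5% of these changes, with 2 false calls. The changed share was far below the 12.2% called in the data, on which the adjusted p-values depend. Every array of a probe set was given the same spread, whereas the replicate SD was 0.773 (micropylar) and 0.562 (peripheral). The simulated shares therefore do not give the share of changes found in these data. Few or 0 calls in a list do not show that its genes were unchanged.

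Members and the 47 gene lists were chosen with earlier results of these data known, so a list's count is no independent evidence. The rule took, among genes with a name, the 15 largest called differences in each direction. Per list and direction it took the 4 or fewer called members with the smallest adjusted p. Genes of the endosperm regulator list could be named whatever their result. Replicate numbers were not used to pair the arrays in the main fit, and the sensitivity values below include a fit that used them. Alternatives changed the constant, scaling, filter, variance model, arrays and threshold.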

Additional observations from a re-analysis of the deposited data

How the results depend on the processing

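Of the 112 called genes that are named, 58 kept their call under all 15 alternatives and 54 lost it under at least 1. The counts of higher and lower probe sets (1049 and 1062) ran from 475 to 768 and from 394 to 907 with 1 array left out, and were 407 and 400 at an adjusted p under 0.01 with 4-fold. They were 782 and 1631 with a common median. They were 735 and 767 with a constant of 1, and 1160 and 1186 with a constant of 100. Array weights gave 866 and 932, and the 4 micropylar and peripheral arrays alone gave 737 and 835. Replicate numbers do not pair the arrays: deviations of same-numbered arrays correlated at 0.0015, and the replicate block gave 1035 and 1056, with no call of a named gene changed. Signals near the floor limit sizes: 217 higher and 171 lower probe sets had both dim arrays under 35.9. With 1 array left out, the remaining array of a region is assumed to vary like the other groups.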

Other observations

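Several gene groups not described above were called in few members. Of 35 tested UDP-glycosyltransferases 3 were higher (8.57%) and 2 lower (5.71%), near the 6.14% and 5.44% of all named genes. UGT74D1, which glycosylates auxins, had signals of 346 and 90.6 in the micropylar and 2576 and 3715 in the peripheral arrays, a difference of -3.83 ± 0.61 (adjusted p = 0.000252), and was brightest in the chalazal endosperm (mean 5513). UGT84B2 had 700 and 1911 against 91.1 and 9.61, a difference of 3.98 ± 0.74 (adjusted p = 0.00119). Of 10 tested sugar and amino acid transporters 1 was higher and 1 lower (10.0% each, against 6.14% and 5.44% of all named genes). SWEET8, a sugar exporter, had 25270 and 22329 against 6163 and 6633, a difference of 1.89 ± 0.47 (adjusted p = 0.0113), and lost its call whenever an array was left out (adjusted p up to 0.0933). Of 13 tested cytochrome P450 genes 1 was higher and 1 lower (7.69% each), near the 6.14% and 5.44% of all named genes. CYP79A2 had 558 and 23.3 against 2070 and 1872, a difference of -3.42 ± 0.84 (adjusted p = 0.0101), with a mean of 29698 in the chalazal endosperm, and it lost its call under 4 alternatives (adjusted p up to 0.199). bHLH115, a transcription factor of the bHLH family, had 91.5 and 138 against 1123 and 1076, a difference of -2.93 ± 0.53 (adjusted p = 0.00092). Of 11 tested autophagy genes 0 were called in limma, and 1 higher had an unadjusted p under 0.05.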
